A study of Mus musculus with 120 samples.

Results

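Liver precursors of dendritic cells (preDC) and conventional dendritic cells of the liver (cDC) were compared well by well. The comparison holds the wells listed with 1 cell on the plates labelled as liver preDC or as liver cDC with no stain named. These are 3040 of the 44840 such wells in the series, on 8 of 118 plates, with 1520 wells of each sort. All mice were of the strain labelled c57bl and spent 2 weeks on a normal diet (ND) or on a diet lacking methionine and choline (MCDD), which is used as a model of steatohepatitis. Each sort had 2 plates per diet, numbered 1 and 2, and each plate gave 380 wells with a cell and 4 empty wells. Cells were sorted into the wells of capture plates, their mRNA was barcoded, and the wells of a plate were pooled and amplified together. The preDC gate was CD45+ Lin-, CD172α-, CD11c+ and CD135+, and the cDC gate was CD45+ Lin-, MHC-II+ and CD11c+. As labelled these gates do not exclude each other, since a CD172α- MHC-II+ CD11c+ CD135+ cell meets both. Age, number of mice and pooling are absent from the labels, as is any statement that each plate is a mouse of its own. A p-value here judges a difference against the plate-to-plate spread alone, and that spread may be technical.

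PreDC arise in the bone marrow from the common dendritic cell progenitor, travel in the blood and enter tissues, where they finish their differentiation into cDC. They depend on CD135 (Flt3), the receptor for the Flt3 ligand, a growth factor of the dendritic lineage. CD11c is an integrin subunit shared by precursors and mature cells. MHC-II, which presents antigen to CD4 T cells, is acquired as cells mature. CD172α (SIRPα) marks the cDC2 branch. Gene-level counts and fluorescence readouts were not analysed here, so neither sort was checked against its defining markers. What was measured is the yield of each well, as the number of genes detected and a deposited total count. A well's yield varies with the RNA of its cell, the capture of that RNA and the sequencing depth.

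The 8 plates were sequenced in 1 batch, and they share the same 384 cell barcodes under 8 different plate barcodes. The sum of the totals of the cell wells lay between 5343458 and 7988868 per plate, and no well had the same total and number of genes on any pair of plates. Median values over the 32 empty wells were 13.5 genes and a total of 154.5. Over all cell wells they were 519 genes and 12367 for preDC, and 406 genes and 10546.5 for cDC.

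PreDC had more genes per well than cDC on each diet, in the middle and the upper part of the plates. On ND the plate medians of preDC were 525 and 502 genes, and those of cDC 384 and 362.5 genes. The groups did not overlap. On MCDD the plate medians of preDC were 550.5 and 486.5 genes, and those of cDC 491.5 and 401.5 genes. Here the lower preDC plate lay just under the higher cDC plate. Over both diets the plate medians averaged 516 ± 27.9 genes in preDC and 410 ± 56.7 genes in cDC (SD, n = 4 plates each). The log2 difference was 0.46 ± 0.05 SE on ND and 0.22 ± 0.17 SE on MCDD, and 0.34 ± 0.09 SE with both diets weighted equally. The two-sided exact permutation test, with the sort labels exchanged within diet, gave p = 0.111 (adjusted p = 0.222). The smallest p that its 36 relabellings allow is 0.0556, so no difference between the sorts could be called, whatever its size. The adjustment covers 12 readouts of preDC against cDC. None passed, none had an unadjusted p under 0.05, and 5 were at the smallest p allowed. These were the median total, the 75th and 90th percentiles of genes, and the shares with at least 500 and 1000 genes. They describe the same wells and are not separate supports. The sorts did not overlap in 8 of the 12 readouts on ND and in 5 on MCDD.

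The totals were higher in preDC too. The plate median total was 10592.5 and 12586 in preDC against 9512 and 9296 in cDC on ND. On MCDD it was 13051.5 and 14973 in preDC against 11432.5 and 11891.5 in cDC. The groups did not overlap on either diet. The log2 difference was 0.28 ± 0.08 SE, or 1.21-fold (exact permutation test, adjusted p = 0.133). The mean of log2 totals over wells, which gives more weight to wells of low yield, differed by 0.15 ± 0.13 SE. A well's total can vary with the RNA of its cell as well as with sequencing depth. Matching on the total can therefore also remove a difference in RNA content between the sorts. Since totals as well as genes were higher in preDC on average, genes were next compared at the same total.

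**Figure D1:**
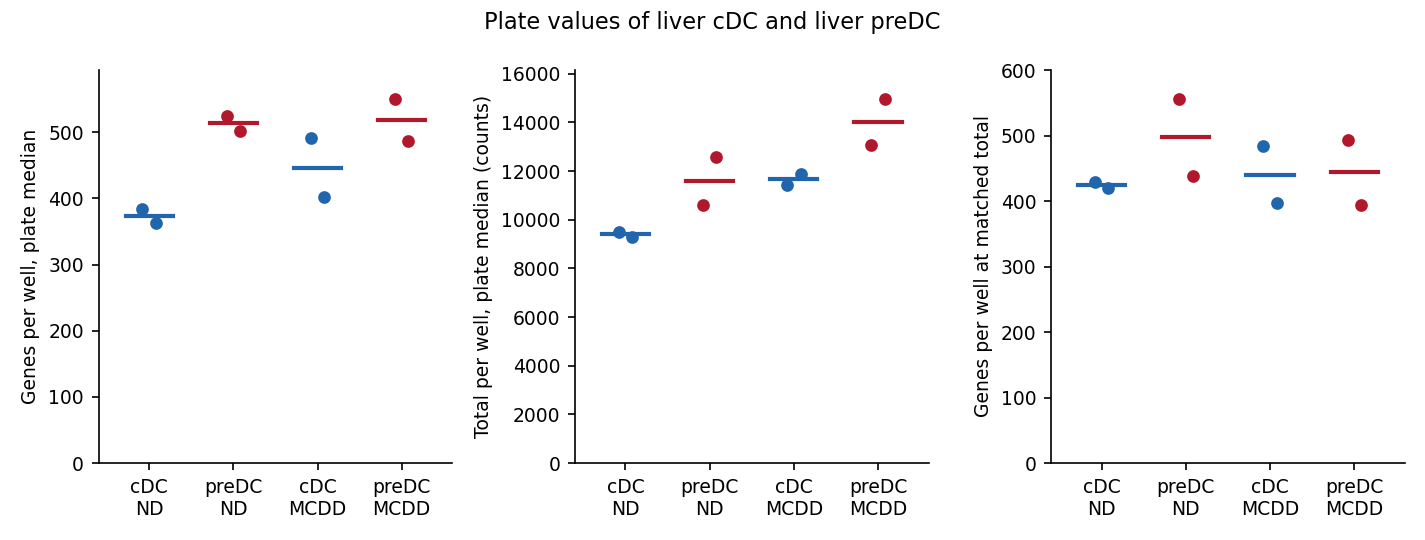
Plate medians of genes per well (left), plate medians of the total count per well (middle) and genes per well at matched total (right) for liver cDC (blue) and liver preDC (red) on normal diet (ND) and MCDD. Points are plates, 2 per group, and bars are group means. The preDC plates lie between 486.5 and 550.5 genes in the left panel, while at matched total the groups overlap on MCDD.

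For this, wells were put in bins of 0.5 log2 units of their total. The 8 bins in which each plate held at least 10 wells ran from a total of 2896 to 46341 and held 79.5% of the cell wells. The plate's median gene number in each bin was averaged over bins on a log2 scale. At matched total, preDC had 557 and 438 genes and cDC 429 and 420 genes on ND, and these groups did not overlap. On MCDD preDC had 493 and 395 genes and cDC 485 and 397 genes. On MCDD the preDC and cDC plates of the same number were thus nearly equal in this average over bins. The log2 difference was 0.11 ± 0.14 SE over both diets, from 0.22 ± 0.17 SE on ND and 0.01 ± 0.22 SE on MCDD, against 0.34 before matching (exact permutation test, adjusted p = 0.417).

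The bins were also compared one by one along the range of totals. On ND the mean of the preDC plates was above that of the cDC plates in 8 of 8 bins, by 0.03 to 0.31 log2 units. On MCDD it was above in 6 of 8 bins, and the differences ran from -0.29 to 0.10. The -0.29 was in the lowest bin, from 2896 to 4096, where the plate with the fewest wells held 10. The other negative bin was at -0.0003. The lowest bin thus pulled down the MCDD average, to which each bin contributes equally. The ND difference was larger for preDC plate 1. In the bin of totals from 8192 to 11585, preDC plate 1 on ND had a median of 496 genes and plate 2 had 413 genes, against 365 and 367 genes in cDC. In the bin of totals from 16384 to 23170 the same plates had 799 and 673 genes, against 589 and 604 genes in cDC. In both of these bins the second preDC plate still lay above both cDC plates. In the bin of totals from 4096 to 5793 it had 215 genes, between the 213 and 307 genes of the cDC plates. Without preDC plate 1 on ND the difference over both diets was 0.03 log2 units, and without plate 2 it was 0.20. Without preDC plate 1 or cDC plate 2 of MCDD it was 0.03 and 0.04, and without the other MCDD plate of either sort it was 0.19. The effect of the sort on MCDD minus that on ND was -0.21 log2 units at matched total and -0.24 for the plate medians. Neither passed an exact permutation test with diets exchanged within each sort (p = 0.389 and 0.333, adjusted p = 0.867 for both).

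**Figure D2:**
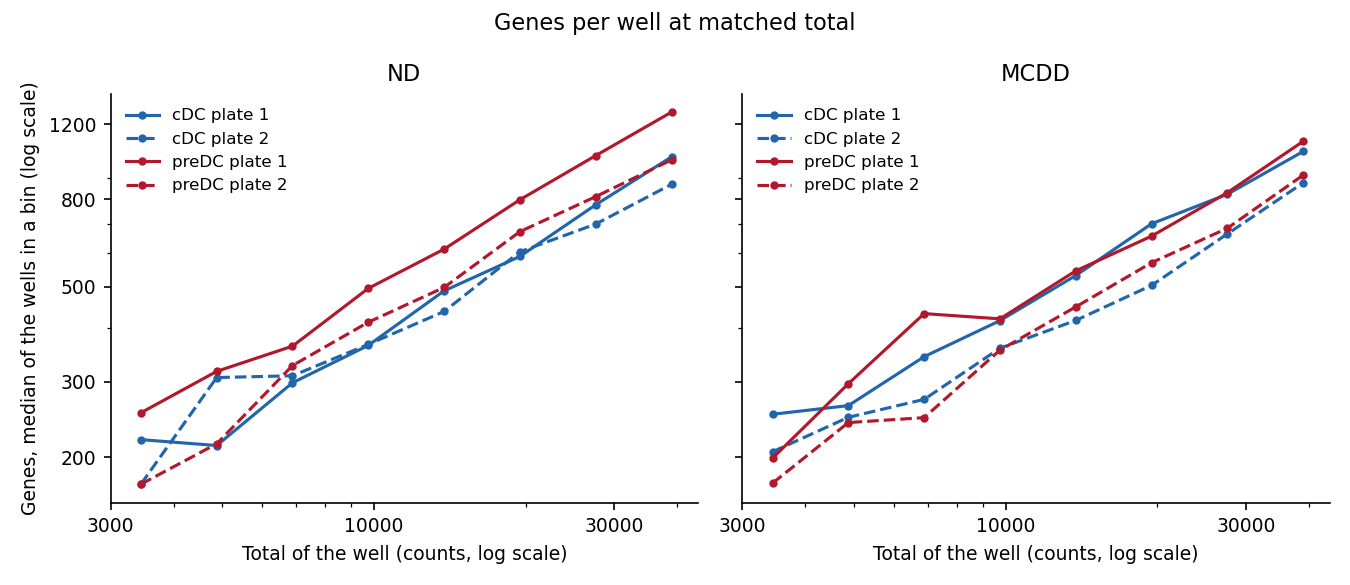
Genes per well (log scale) against the total count of the well (log scale), as the median of the wells in each of 8 bins, for each liver cDC plate (blue) and liver preDC plate (red) on ND (left) and MCDD (right). Solid lines are plates numbered 1 and dashed lines plates numbered 2. On ND the preDC plates had 496 and 413 genes in the bin from 8192 to 11585, against 365 and 367 in cDC, while on MCDD the lines of the sorts cross, with 252 genes in cDC plate 1 against 199 in preDC plate 1 in the lowest bin and 344 against 433 in the bin from 5793 to 8192.

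In the average over bins at matched total on MCDD, the plates with the same number lay closer together than the plates of the same sort. Plate 1 had more genes than plate 2 in all 4 groups of sort and diet, by the values above. The number of genes per 1000 counts of total is a simpler correction for the total. Its plate medians were 46.6 and 38.3 in preDC and 37.9 and 38.1 in cDC on ND. On MCDD they were 38.7 and 29.9 in preDC and 41.0 and 31.6 in cDC. By this ratio each preDC plate lay above the cDC plate of the same number on ND and below it on MCDD, and the log2 difference over both diets was 0.04 ± 0.15 SE. The ratio falls as the total rises where genes rise more slowly than the total. The slope of log2 genes on log2 total over the wells of a plate was between 0.66 and 0.72 in preDC and between 0.64 and 0.73 in cDC, with Pearson's r from 0.91 to 0.97 across wells. The slopes differed by 0.025 ± 0.022 SE (exact permutation test, adjusted p = 0.519). The slope difference ran from 0.0068 without cDC plate 1 of ND to 0.042 without cDC plate 2 of ND. With only the wells of at least 100 genes it was 0.052 ± 0.014 SE (exact permutation test, p = 0.0556, adjusted p = 0.0833). That filter cuts on the gene number that enters the slope.

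The wells of high and low yield were then compared by percentiles of genes. At the 90th percentile of a plate's wells, preDC had 1074 and 1101 genes on ND and 1044 and 995 on MCDD. The cDC had 934 and 943 genes on ND and 978 and 844 on MCDD. The groups did not overlap on either diet, and the log2 difference was 0.19 ± 0.06 SE. At the 75th percentile preDC averaged 784 ± 36.7 genes and cDC 660 ± 55.4 genes (SD, n = 4 plates each). That is 0.25 ± 0.08 SE on the log2 scale, again without overlap on either diet. For both percentiles the exact permutation test gave adjusted p = 0.133. At the 25th percentile the log2 difference was 0.43 ± 0.34 SE, and at the 10th percentile 0.12 ± 0.79 SE (exact permutation test, adjusted p = 0.417 and 0.909). Without 1 plate the 25th percentile differed by 0.16 (cDC plate 2 of ND left out), 0.24 (preDC plate 1 of MCDD) or 0.69 (cDC plate 1 of ND). The 10th percentile was 155 and 73.9 genes in preDC and 152 and 31.8 genes in cDC on ND. On MCDD it was 218 and 60.8 genes in preDC and 187 and 120 genes in cDC. In each of the 4 groups plate 2 was the lower one. The spread between plates of 1 group at this level exceeded the difference between the sorts. With only the wells of at least 100 genes kept, the log2 difference was 0.26 ± 0.10 SE at the 10th percentile, 0.33 ± 0.07 SE at the 25th, 0.33 ± 0.08 SE at the median, 0.25 ± 0.08 SE at the 75th and 0.21 ± 0.06 SE at the 90th. Each of these was at the smallest p of the exact permutation test, 0.0556 (adjusted p = 0.0833). This filter cuts on the gene number that is then compared, and it removes the low wells in which the plates differed most. It kept 76.3% of the wells on cDC plate 2 of ND and 96.8% on preDC plate 1 of MCDD. Each percentile of the kept wells thus stands for a different part of each plate. Whether the difference changes from one percentile to another was not tested.

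**Figure D3:**
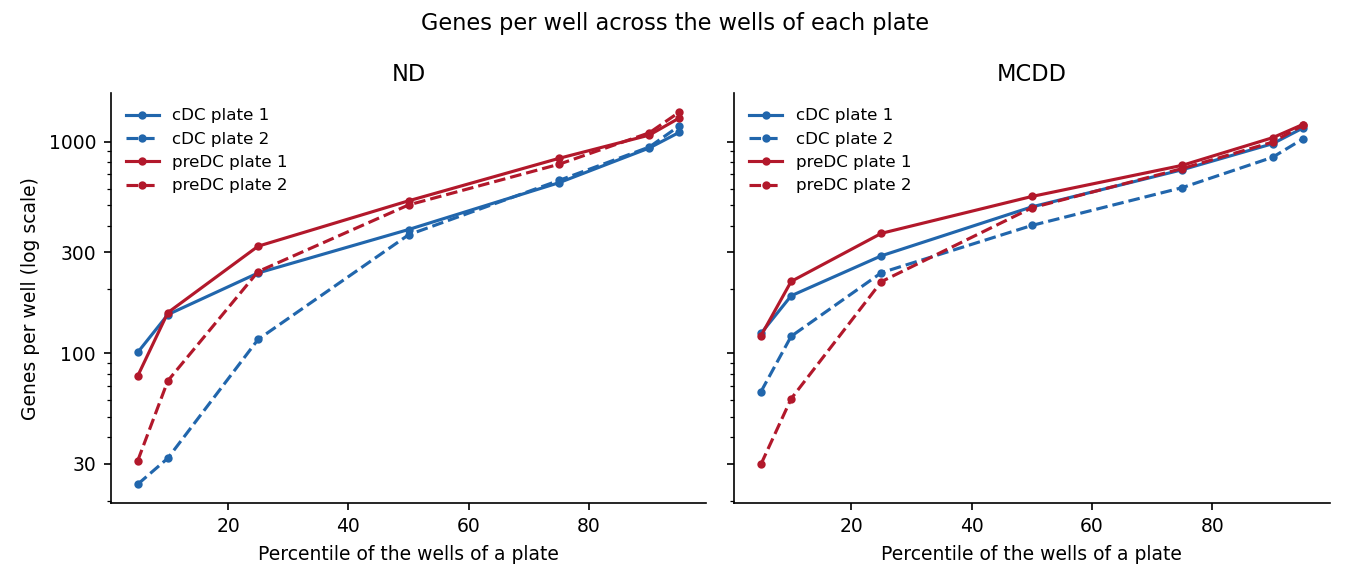
Genes per well (log scale) at the 5th to 95th percentile of the wells of each plate, for liver cDC (blue) and liver preDC (red) on ND (left) and MCDD (right). Solid lines are plates numbered 1 and dashed lines plates numbered 2. The red lines lie above the blue lines from the 75th percentile up to the 90th on both diets, while at the 10th percentile plates numbered 2 are the lower ones in all 4 groups.

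The sorts were also compared by the share of wells past a given number of genes. At least 500 genes were found in 53.9% and 50.3% of preDC wells on ND (95% Wilson intervals 48.9 to 58.9% and 45.3 to 55.3%). In cDC on ND the share was 35.8% on both plates (31.1 to 40.7%). On MCDD it was 57.1% and 48.9% in preDC (52.1 to 62.0% and 44.0 to 54.0%) and 47.9% and 35.0% in cDC (42.9 to 52.9% and 30.4 to 39.9%). The difference averaged 13.9 ± 3.9 percentage points (SE), and the groups did not overlap on either diet, although the lower preDC plate on MCDD was only about a point above the higher cDC plate. At least 1000 genes were found in 12.2% ± 1.8 of preDC wells and 8.0% ± 1.7 of cDC wells (SD, n = 4 plates each), a difference of 4.2 ± 1.2 points (SE). For both shares the exact permutation test gave adjusted p = 0.133. At least 100 genes were found in 90.1% ± 5.8 of preDC wells and 89.8% ± 9.2 of cDC wells (SD, n = 4 plates each). That difference of 0.3 ± 6.0 points (SE) was far smaller than the spread between plates (exact permutation test, adjusted p = 0.944). The intervals cover counting error only.

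The wells of low yield lay on particular plates. A total under 1000 was found in 18.9% of wells on cDC plate 2 of ND, in 12.4% on preDC plate 2 of MCDD and in 10.0% on preDC plate 2 of ND. On the other 5 plates it was 2.6 to 6.8%. The fold between the 25th and 75th percentile of genes was 5.65 on cDC plate 2 of ND and 3.43 and 3.22 on the second preDC plates. On the remaining plates it was 2.10 to 2.67. Over all plates this spread within a plate was 0.17 ± 0.33 SE log2 units lower in preDC than in cDC (exact permutation test, adjusted p = 0.8), and it turned to 0.10 higher without cDC plate 2 of ND. On that plate the wells with the highest totals, 10% of the wells, held 41.9% of the summed total, against 28.4 to 34.4% on the other plates.

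Low yield followed the position of the well. In plate row P the median was below the plate median on 8 of 8 plates, and row P was among the 3 lowest of the 16 rows on each. Row N was among the 3 lowest on 5 plates. Row O, between them, was not low throughout: it was above the plate median on 4 of 8 plates and among the 3 highest rows on 2. Row C was above the plate median on 8 of 8 plates, at 1.28 to 1.83 times it, and was the highest row on 5. Rows N to P together had a median of 71 genes on preDC plate 2 of MCDD, against 570 in rows A to M of the same plate. On preDC plate 2 of ND these values were 232 and 556, and on cDC plate 2 of ND 104 and 381. On the other 5 plates rows N to P had 311 to 540 genes and rows A to M 383 to 553, and on cDC plate 1 of ND rows N to P were the higher, at 414 against 383. Rows N to P hold 68 of the 380 cell wells of a plate. On preDC plate 2 of MCDD they held 44 of the 61 wells with under 100 genes. They held 24 of 50 such wells on preDC plate 2 of ND and 34 of 90 on cDC plate 2 of ND. On cDC plate 2 of MCDD it was 9 of 32. On the plates numbered 1 it was 12 of 27 in preDC and 2 of 19 in cDC on ND. On MCDD these were 2 of 12 and 6 of 14. The lowest row of cDC plate 2 of ND was row L, with a median of 54 genes.

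**Figure D4:**
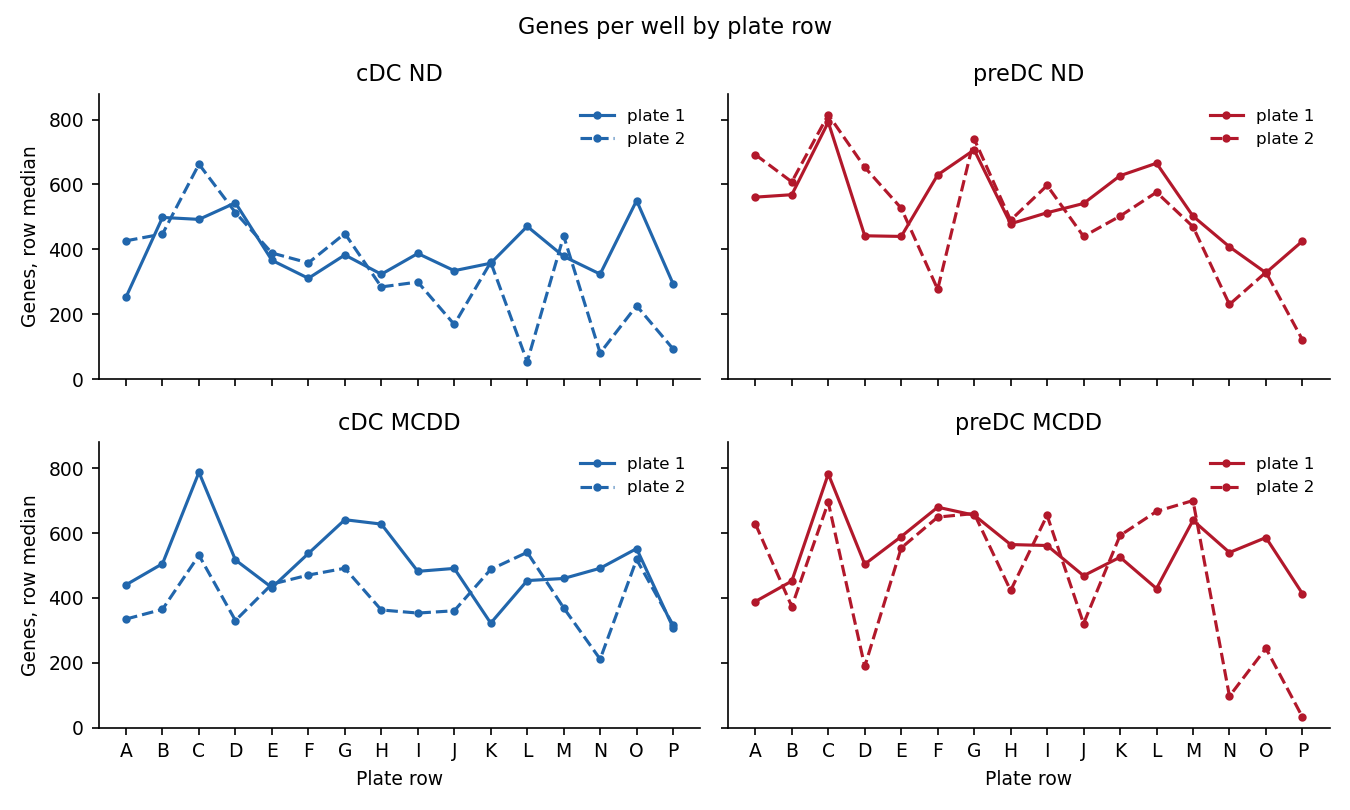
Median genes per well in each plate row, A to P, for the 2 plates of each group (cDC in blue, preDC in red; solid line plate 1, dashed line plate 2). Each point is the median of the cell wells of a row. Row C lies above the plate median on 8 of 8 plates and row P below it on 8 of 8, and the low rows N to P of preDC plate 2 on MCDD had 71 genes together.

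Without rows N to P, row O included, a choice made after these medians had been seen, the preDC plates were closer to each other and the sorts did not overlap. In rows A to M preDC had 553 and 556 genes on ND and 553 and 570 on MCDD. The cDC had 383 and 381 genes on ND and 497 and 430 on MCDD. The log2 difference was 0.41 ± 0.05 SE, and the exact permutation test gave the smallest p it allows (0.0556, adjusted p = 0.0952). The total differed by 0.41 ± 0.18 SE in these rows, and the genes at matched total by 0.16 ± 0.12 SE (exact permutation test, adjusted p = 0.0952 and 0.296).

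The position of a well also fixes its cell barcode, and a few barcodes gave low yield in both sorts. Of 380 positions, 208 had at least 100 genes on every one of the 8 plates, 3 had fewer than 100 genes on all 8 and 1 on 7. Over all liver preDC and cDC wells, 10.0% had fewer than 100 genes. The barcodes of these 4 positions, as the deposited table writes them, are shown because they gave few genes with either sort in the well.
D9: gacctgt
E10: cgcaatc
J16: gaagtcc
L16: gattcag
The well D9 had 25 to 57 genes over the 8 plates, E10 had 18 to 48, J16 had 19 to 70 and L16 had 15 to 185. On the 110 other plates of the series the first 2 barcodes were also low, with fewer than 100 genes on 81 and 80 plates. The barcodes of J16 and L16 were below 100 genes on 17 of these plates each, 15.5%, near the 15.9% over all wells of those plates. Without the 4 positions the log2 difference between preDC and cDC stayed at 0.34 for the plate median of genes and at 0.11 at matched total.

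Within a sort, the diets were compared with 2 plates each, for which 0.333 is the smallest p of the exact permutation test. In preDC the log2 difference of MCDD minus ND was 0.01 ± 0.09 SE for the plate median of genes, 0.28 ± 0.16 SE for the total and -0.16 ± 0.24 SE for genes at matched total. In cDC these were 0.25 ± 0.15 SE, 0.31 ± 0.03 SE and 0.05 ± 0.14 SE. The cDC value for the plate median of genes was 0.11 without cDC plate 1 of MCDD, 0.40 without cDC plate 2 of MCDD and 0.11 ± 0.16 SE with only the wells of at least 100 genes. The total was higher on MCDD in both sorts, and both MCDD plates of each sort lay above both of its ND plates. The genes at matched total overlapped between diets in both sorts.

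Marrow preDC carry the same labelled markers as liver preDC and were sequenced in the same batch, so the 2 tissues were set side by side at matched total. In the 6 bins shared by these plates, from a total of 5793 to 46341, liver preDC had 697 and 576 genes on ND and 624 and 492 on MCDD. Marrow preDC had 888 and 562 genes on ND and 217 and 259 on MCDD. The tissues overlapped on ND, where liver minus marrow was -0.16 log2 units. On MCDD both liver plates lay above both marrow plates, by 1.22 log2 units or 2.33-fold. The empty wells of the marrow plates on MCDD had median totals of 544 and 1283, with 6.5 and 15 genes. Those of marrow on ND had median totals of 184.5 and 226, and those of liver preDC 117.5 to 258.5. Whether such counts in the cell wells bear on the genes at matched total was not tested. Neither the difference over both diets of 0.53 ± 0.21 SE nor the difference between diets of 1.38 passed an exact permutation test (adjusted p = 0.333 and 0.417). The totals did not separate the tissues, at 0.10 ± 0.19 SE (exact permutation test, adjusted p = 0.722).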

How the data were processed

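Single wells were measured by plate-based single-cell RNA sequencing with T7 amplification, per the labels' protocols. The deposited table holds whole-number counts per well: a total and the number of genes, neither normalized, per the file headers. The header does not say whether the total counts reads or molecules. The submitters' processing notes name bcl2fastq (version 2.15.0.4) and the mm10 build. An aligner, a counting tool or a filter is not given in the sources used here. Each well took its sort and diet through the amplification batch that the sample's title names. Wells listed with 1 cell were kept, with no other filter.

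The plate is the replicate. Readouts were the log2 plate medians of genes and total, 4 percentiles of genes, 3 shares, the interquartile range, the slope, and genes at matched total, with a pseudocount of 1 on the log2 scale of wells. The two-sided exact permutation test exchanged sorts within diet, with Benjamini-Hochberg adjustment over 12 readouts. An adjusted p under 0.05 was a call. For liver against marrow preDC it exchanged tissues within diet, and for the difference between diets it exchanged diets within tissue. Adjustment there covered only the plate medians of genes and total and the genes at matched total. Differences are preDC minus cDC, averaged over diets, with an SE from the spread of plates within groups. The matching was also run on simulated plates with a known difference at matched total. Those plates shared a common slope, so the simulation does not cover the differing slopes of the real plates. The planned rules for naming genes and marker genes named none, since no gene-level values were used. Members and readouts were chosen with earlier results of these data known. Same-numbered plates share only a number in the labels and were not treated as pairs in the main test. Their deviations over well positions correlated at 0.09 on ND and 0.02 on MCDD. Wells at the same position hold unrelated cells, so this correlation cannot show whether such plates share a mouse or a preparation. The software was matplotlib 3.10.9, scipy 1.17.1, pandas 2.3.3, numpy 2.4.6 and Python 3.11.15.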

Additional observations from a re-analysis of the deposited data

Results flagged for a closer look

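The well P1 of cDC plate 2 on ND is listed as empty, yet it gave 858 genes and a total of 9598. This is signal in a well outside the comparison, above the median of 362.5 genes of the cell wells on its plate and above 84.7% of them. The other 31 empty wells of the 8 plates had at most 65 genes and a total of at most 2074. Among the empty wells, O1 had 36 to 65 genes on the 8 plates, while O2 had 3 to 14 and P2 had 3 to 13. Whether the well P1 received a cell was not tested. With 2 plates per group, no plate could be tested for standing far from the rest of its group.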

How the results depend on the processing

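Across 218 alternative values of 19 results, 18 turned the sign of a difference. None gave an adjusted p under 0.05, but nearly all of them could not have. The smallest p of the exact permutation test was 0.0556 or more, except where labels were permuted over both diets together (0.0286). For preDC against cDC, leaving out each of the 8 plates moved the log2 difference in the plate median of genes between 0.27 and 0.41, in the total between 0.22 and 0.34 and in genes at matched total between 0.03 and 0.20, all with the same sign. With the mean of log2 genes over wells in place of the median, the difference was 0.25 ± 0.21 SE (exact permutation test, adjusted p = 0.417). With wells matched by plate position it was 0.28 ± 0.11 SE. The other calculations of genes at matched total (other bin widths, at least 20 wells per bin, a line per plate, genes per 1000 of total) gave 0.04 to 0.16. The variants without rows N to P, without wells of a total under 1000 and without the 4 low positions were chosen after seeing the data. Signs turned with 1 plate left out where differences were small against the spread between plates. The 10th percentile (which also turned without cDC plate 2 of MCDD or plate 1 of preDC on either diet) ran from -0.44, without cDC plate 2 of ND, to 0.69. The share of wells with at least 100 genes ran from -4.34 to 5 percentage points, also lowest without that plate, and the interquartile range from -0.44 to 0.10 log2 units. In the diet comparisons, preDC medians ran from -0.078 to 0.10, cDC medians from 0.11 to 0.40, preDC at matched total from -0.33 to 0.047 and cDC at matched total from -0.10 to 0.19. The total of liver against marrow preDC ran from -0.0197 to 0.22, and turned to -0.43 with only wells of at least 100 genes. With the replicate block, in which the sort is exchanged within the 4 same-numbered pairs, the differences stayed at 0.34, 0.28 and 0.11, with p = 0.125, 0.125 and 0.25 in the exact permutation test, where 0.125 is the smallest possible. With labels permuted over both diets together the exact permutation test gave adjusted p of 0.137 for genes, 0.229 for totals and 0.533 at matched total.

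With 380 wells a share of 0 on a plate would allow up to 0.789%. The number of plates, not the wells, limits these tests.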
